A study of Mus musculus with 16 samples.

Results

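The cytosolic ribosome is built from a small and a large subunit, and its protein components are named Rps for the small subunit and Rpl for the large one. The 63 genes described here are all symbols of the deposited gene table that carry an Rpl or Rps name with a number or the endings p0, p1, p2 or a, out of 18111 symbols. S6 kinase genes and names marked as pseudogenes were left out. The rule rests on names and not on measured values, though it was chosen with earlier results of these data known. Of the 63 symbols, 36 belong to the large subunit and 27 to the small subunit.

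Most ribosomal proteins are made in equal numbers for each ribosome, and the messenger RNAs of ribosomal proteins are among the most abundant in most cells. In vertebrates these transcripts typically open with a run of pyrimidines, the 5′ terminal oligopyrimidine tract, through which TOR signalling controls their translation. Several ribosomal proteins have a paralogue, a near copy that can take the same place in the ribosome in particular tissues. Hepatocytes export plasma proteins and beta cells export insulin, so both depend on high translation.

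Primary hepatocytes and pancreatic islets of wild type B6 mice were cultured for 48 h. FK866 blocks NAMPT, the rate-limiting enzyme that rebuilds NAD from nicotinamide. The 4 groups, with 4 arrays each, were measured on Illumina bead arrays, from biotin-labelled copies of total RNA. They were islets given 10 nM FK866, control islets given 0.1% DMSO, hepatocytes given 200 nM FK866 and control hepatocytes given 0.1% DMSO, all without a genetic change. The dose differed between the tissues, so a difference in response between them cannot be told apart from a difference in dose. The labels do not say whether the 4 replicates of a group were separate animals, and p-values therefore cover only how far these samples scatter, a scatter that may be technical. Values are normalized log2 intensities, and one gene's level is not set against another's because each probe binds with its own strength. A gene was tested where its probe was detected (detection p under 0.05) on at least 4 arrays of the comparison, or on at least 4 arrays of each tissue where the FK866 changes of the tissues were compared. It was called where limma's p-value, adjusted over all genes tested by the Benjamini-Hochberg method, was under 0.05.

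Beta cell markers were detected on all 4 arrays of both islet groups for 9 of 10 markers with a probe, and hepatocyte markers on all arrays of both hepatocyte groups for 9 of 12. The 2 islet arrays numbered 2, one of each treatment, stood apart from the rest. Their median probe signal was 18 in FK866-treated islets and 15.4 in control islets, against 26.9 to 33.1 on the other 6 islet arrays. The ribosomal protein probes had a median signal of 8942 and 7353 on those arrays, against 23110 to 26420 on the others. Fibroblast and stellate cell markers were 0.79 higher on the FK866 array and 1.28 higher on the control array than on the other arrays of their group (median log2 difference). Where leaving out the control islet array numbered 2 ends a call or moves a called value by more than 1.5 times, the value without it is given. In such bulk cultures fewer cells of a type and less RNA per cell cannot be told apart.

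Of the 63 genes, 60 could be tied to a probe, 44 of them to a single probe and 16 to several. Rpl3l, Rpl39l and Rps23 had no probe tied to them, and their deposited scores were at the floor of the scale on nearly all arrays. Rpl14, Rpl17, Rpl6 and Rplp2 were not detected on any array. Rps15a was detected on 1 array of each group, so it entered the comparison of the tissues only. The array thus tested 55 of the 63 genes for FK866 in each tissue and 56 between the tissues. The probes of 37 of the genes lay among the brightest 1% of all probes (256 of 25697). The brightest probe of an array read 55716 to 65157 units, close to the top of the scanner's range, where differences are compressed. Ribosomal protein genes carry many processed pseudogenes, and whether a probe also binds their transcripts was not tested.

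The promoter windows of the RefSeq table (GRCm38.p6), from 250 bases before to 50 bases after an annotated start, covered 51 of the 63 genes. A pyrimidine run, taken as at least 5 consecutive C or T counted from a C within 10 bases of the start on the gene's own strand, was found for 33 of these 51 genes, 64.7%, against 34.4% of all 27025 genes with a window. The letters CCGGAAG, which hold the core bound by ETS factors, stood on either strand for 22 genes (43.1%), against 9.93% of all genes. The palindrome-like TCTCGCGA stood on either strand for 8 genes (15.7%), against 1.13% of all genes. The letters TATAAA stood on either strand for 6 genes (11.8%), against 15.7% of all genes. A match is a description of these letters and not a site. Windows from 15 bases before to 15 bases after the start are shown for genes that the comparisons below turn on, with the counted run in capitals. Pyrimidines that lie further upstream than the counted C stay in lower case, as in Rpl7a, Rps27l and Rpl22l1. They include Rpl22 and its paralogue Rpl22l1, genes that were lower in islets (Rpl13a, Rpl7a, Rpl7l1 and Rps27l), and Rps6 and Rps10. They lie at chr4:152324421-152324450 (Rpl22, plus strand), chr3:28805493-28805522 (Rpl22l1, plus strand), chr7:45128731-45128760 (Rpl13a, minus strand), chr2:26910792-26910821 (Rpl7a, plus strand), chr17:46782642-46782671 (Rpl7l1, minus strand), chr9:66946071-66946100 (Rps27l, plus strand), chr4:86857353-86857382 (Rps6, minus strand) and chr17:27635230-27635259 (Rps10, minus strand).
Rpl22: cgctgCTTCTggaatgttccagctcccact
Rpl22l1: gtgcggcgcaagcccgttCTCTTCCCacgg
Rpl13a: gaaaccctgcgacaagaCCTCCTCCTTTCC
Rpl7a: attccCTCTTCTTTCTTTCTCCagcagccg
Rpl7l1: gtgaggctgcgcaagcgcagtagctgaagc
Rps27l: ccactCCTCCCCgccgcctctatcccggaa
Rps6: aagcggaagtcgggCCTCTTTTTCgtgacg
Rps10: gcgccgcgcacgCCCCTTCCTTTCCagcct
The counted run covers 17 bases in Rpl7a and 14 in Rpl13a, where the window shown ends before its last base. Rpl22 holds a counted run of 5 and Rpl7l1 none that meets the rule.

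Control islets were compared with control hepatocytes to ask how the ribosomal protein set differs between the tissues. Most of these genes differed little. Of the 56 genes tested, 11 were called higher and 9 lower in islets, so that 35.7% were called, against 66% of all 9988 genes tested (35% higher and 31% lower). The groups did not overlap for 10 genes that were higher and 9 that were lower, against 31.7% and 28.2% of all genes. The median size of the difference, whatever its sign, was 0.26 on the log2 scale for the ribosomal protein genes and 0.92 for all genes. A difference of more than 1 on that scale was found for 4 genes (7.14%), against 46.6% of all genes. Without the control islet array numbered 2 it was found for 2 genes (3.57%), Rpl22 and Rpl13a, against 44.8% of all genes, and 14 genes were called higher and 8 lower. The share called came closer to that of all genes without the number 2 arrays of all groups, at 62.5% against 75.5%, while the median sizes were 0.30 and 0.87. Of 202 other genes with probes in the top 1%, 55.9% were called and the median size was 0.51. For the 37 ribosomal protein genes in that range it was 0.23. The genes were not matched in brightness within that range, where Rplp1, Rps12 and Rpl38 ranked 3, 4 and 5 of all probes. The part of compression near the top of the scale in this contrast was not tested.

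The median difference of the 56 genes was 0.091, beside 0.081 for all genes, with 32 of 56 positive. Its direction depended on the scaling and on the probe: it was -0.19 with each array scaled to its median, and -0.067 with the mean of a gene's probes. No direction is therefore given for the set as a whole. The large subunit had 6 genes higher and 6 lower of 30, and the small subunit 5 higher and 3 lower of 26.

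Rpl22, a large-subunit protein that also binds other RNAs and in mouse holds down its paralogue's transcript, was the gene that differed most. Rpl22 read 12.59, 11.61, 12.03 and 12.72 in control islets, against 9.29, 9.0, 8.84 and 9.10 in control hepatocytes. Every islet array lay more than 2 units above every hepatocyte array. The difference was 3.18 (SE 0.22, adjusted p = 3.21e-09), or 9.06-fold. Rpl22l1, the paralogue, read 7.76, 6.39, 7.66 and 7.54 in control islets, against 7.43, 7.70, 7.13 and 6.77 in control hepatocytes. The groups overlapped, and its difference of 0.075 (95% interval -0.56 to 0.71) did not pass the test. Without the control islet array numbered 2 the Rpl22l1 difference was 0.39, not called. Without the number 2 arrays of all groups it was 0.54 and was called (adjusted p = 0.0391). In the FK866 groups Rpl22 kept the same separation, at 12.41, 11.84, 12.48 and 12.52 in islets and 9.27, 9.17, 8.97 and 9.11 in hepatocytes.

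Rpl13a, a large-subunit protein that in human cells can leave the ribosome to silence inflammatory transcripts, was the gene most reduced in islets. Rpl13a read 11.20, 10.38, 10.93 and 11.09 in control islets, against 12.50, 12.53, 12.64 and 12.57 in control hepatocytes. The ranges were far apart, with a difference of -1.66 (SE 0.18, adjusted p = 7.44e-07), which is 3.15-fold lower in islets. Rpl7a, a large-subunit protein of the family that binds kink-turn RNA, read 12.69, 10.51, 11.95 and 12.52 in control islets, against 13.12, 13.37, 13.18 and 13.22 in control hepatocytes. The groups did not overlap, although the islet array numbered 2 lay well below the others. The difference was -1.31 (SE 0.36, adjusted p = 0.00518), and -0.84 without that array (adjusted p = 0.00417).

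In a list of 16 paralogues and parent genes, of which 9 were tested, 2 were higher and 2 lower in islets (44.4%, against 66% of all genes). Without the control islet array numbered 2 these counts were 4 and 3. Rps4l of the list was measured under its synonym Rps4y2, which these counts leave out. Rps4y2 read 10.63, 8.27, 9.56 and 10.32 in control islets, against 10.46, 10.09, 10.16 and 10.05 in control hepatocytes, with overlapping groups. Rps27l, a paralogue of the small-subunit protein Rps27 and a p53 target, read 14.41, 12.77, 14.53 and 14.36 in control islets, against 15.09, 15.19, 14.99 and 14.90 in control hepatocytes. Its groups did not overlap, but the islet array numbered 2 lay far below the others. The difference was -1.03 (SE 0.33, adjusted p = 0.0115), and -0.61 without that array (adjusted p = 0.0154). Rpl7l1, a paralogue of Rpl7, read 10.20, 9.55, 10.04 and 10.40 in control islets, against 10.94, 10.83, 10.97 and 10.98 in control hepatocytes. Its groups were apart too, with a difference of -0.88 (SE 0.16, adjusted p = 0.000199). Of the same list Rpl3 and Rpl22 were higher. Rpl22l1, Rpl36a, Rpl36al, Rpl39 and Rps4x did not pass the test, with differences of 0.075, -0.35, 0.17, 0.16 and 0.16. Without the control islet array numbered 2 Rpl36a (-0.51), Rpl36al (0.58) and Rps4x (0.34) were called. Their adjusted p was 0.00345, 0.0135 and 0.0219. Rpl22l1 (0.39) and Rpl39 (0.22) were not called in that fit.

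**Figure D1:**
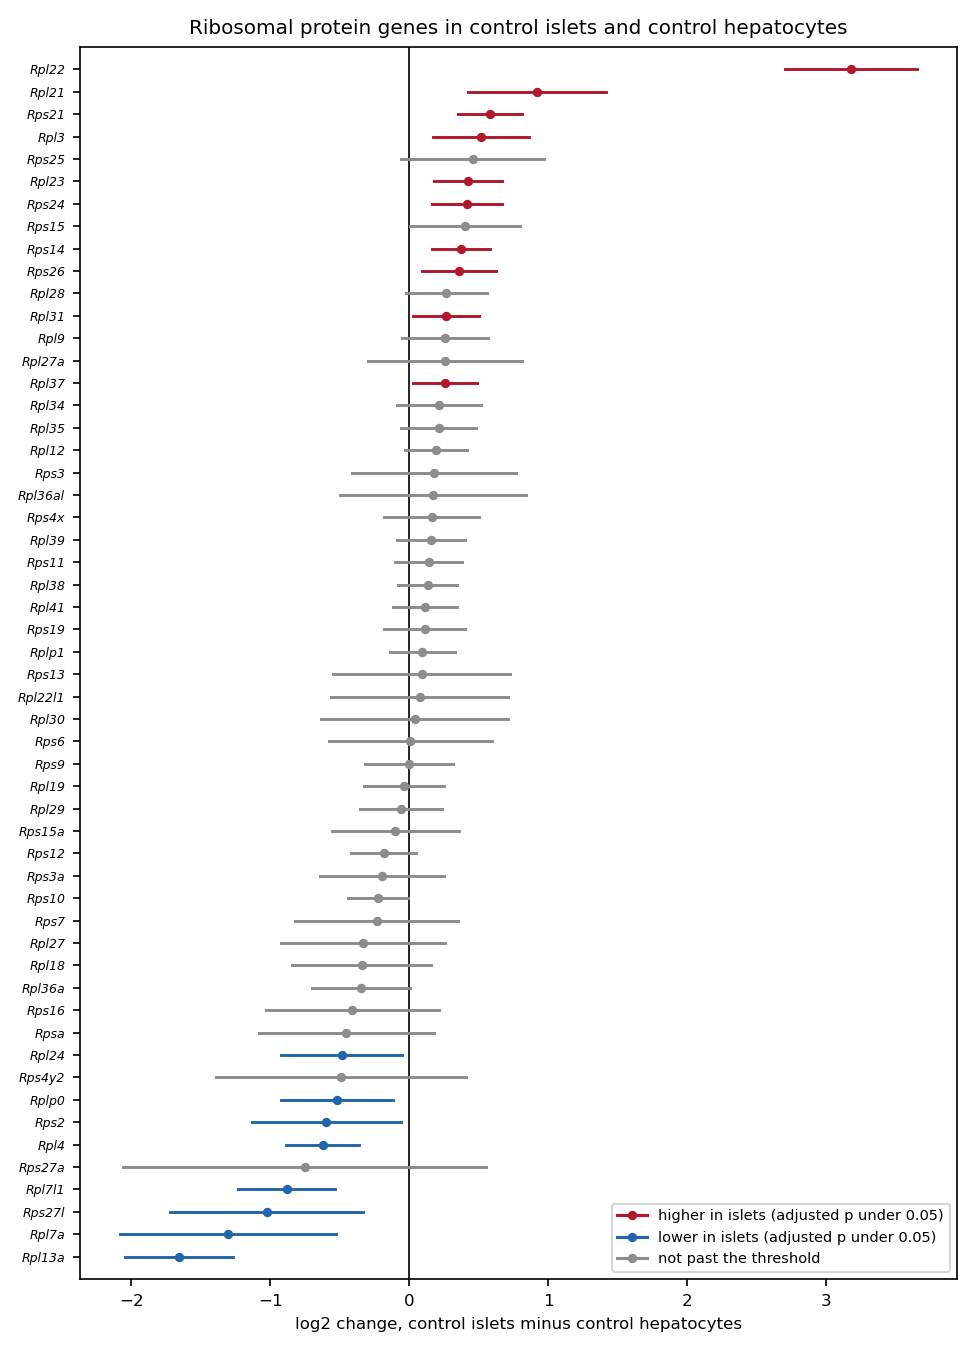
Each row is one of 54 of the 56 ribosomal protein genes tested, and the dot is its log2 difference, control islets minus control hepatocytes (4 arrays each), with a 95% interval from the limma fit. Rpl22 stands alone at 3.18, and Rpl13a lies lowest at -1.66, while 50 of the 54 dots lie within 1 unit of 0.

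Among the small-subunit genes lower in islets, Rps2, at the entry of the messenger RNA channel, differed by -0.60 (SE 0.25, adjusted p = 0.0489), at the edge of the threshold. Its islet array numbered 2 read 14.07, against 15.27 to 15.47 on the other 3 islet arrays and 15.50 to 15.81 in hepatocytes. Without that array the difference was -0.27 and the call was lost (adjusted p = 0.137).

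Of the large-subunit genes lower in islets, Rpl4, a protein that lines the exit tunnel, differed by -0.62 (SE 0.12, adjusted p = 0.000336), and Rpl24, at the joint between the subunits, by -0.49 (SE 0.20, adjusted p = 0.0475). Without the control islet array numbered 2 Rpl24 differed by -0.28 and was not called (adjusted p = 0.151). Rplp0, the base of the stalk that recruits elongation factors, differed by -0.52 (SE 0.19, adjusted p = 0.0249). Its groups overlapped, because the islet array numbered 2 read 9.49 for Rplp0 while the other 3 read 8.28 to 8.88, against 9.30 to 9.47 in hepatocytes. Rplp0 lost its call under 9 of 24 alternatives, among them the fits without the control islet array numbered 3 (-0.33) and numbered 4 (-0.49). The stalk protein Rplp1 differed by 0.093 (95% interval -0.14 to 0.33) and did not pass the test.

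The other genes called higher in islets differed by less than 1 unit. Rpl21, a large-subunit protein, read 7.29, 7.83, 6.90 and 6.79 in control islets, against 6.71, 6.22, 6.14 and 6.06 in control hepatocytes. The ranges were next to each other without overlap, and the difference was 0.92 (SE 0.23, adjusted p = 0.00256). The Rpl21 probe was dim, with signals of 50.04 to 151.2 over the 16 arrays, though it was detected on each. Rps21, a small-subunit protein, read 15.29, 15.52, 15.22 and 15.22 in control islets, against 14.71, 14.81, 14.76 and 14.66 in control hepatocytes. The groups of Rps21 did not overlap, and the difference was 0.58 (SE 0.11, adjusted p = 0.000194). Rps21 lost its call under 2 of 24 alternatives. Rpl3, which reaches the peptidyl transferase centre, differed by 0.51, Rpl23 by 0.42, Rps24 by 0.42, Rps14 by 0.37 and Rps26 by 0.36, with adjusted p between 0.00344 and 0.0192. With each array scaled to its median Rps14 and Rps26 turned to -0.0075 and -0.020, and Rpl3, Rpl23 and Rps24 were positive but not called. The sign of Rps24 turned under 3 alternatives and that of Rpl23 under 1, each resting on other probes or on the deposited scores. Without the control islet array numbered 2 Rpl3 differed by 0.34 (still called) and Rps26 by 0.26 (adjusted p = 0.0516). Rpl31 and Rpl37 differed by 0.26 each, with adjusted p = 0.0472 and 0.0444. Of 24 alternatives, Rpl31 lost its call under 12 and turned its sign under 4, and Rpl37 lost its call under 13, the fit without the control islet array numbered 2 included (0.26, adjusted p = 0.0515).

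**Figure D2:**
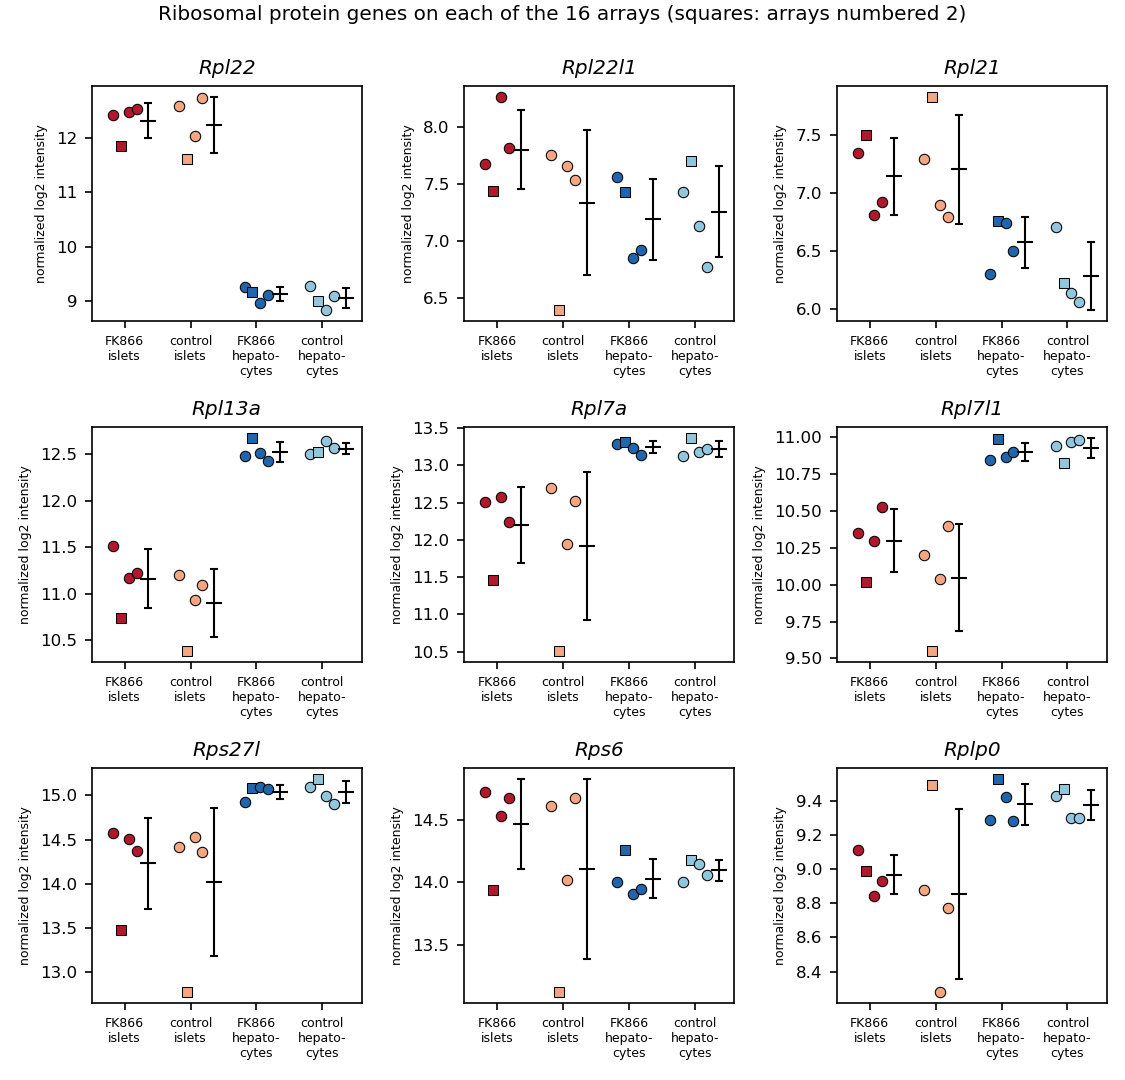
Normalized log2 intensity of 9 ribosomal protein genes on each of the 16 arrays, in FK866-treated islets, control islets, FK866-treated hepatocytes and control hepatocytes; squares are the arrays numbered 2, and bars give the mean and SD of 4 arrays. Rpl22 separates the tissues by about 3 units under either treatment, Rpl22l1 overlaps between them, and the squares of the islet groups lie lowest for Rpl7a, Rps27l and Rps6.

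The small-subunit protein Rps6, which S6 kinase phosphorylates downstream of TOR, read 14.61, 13.12, 14.02 and 14.68 in control islets, against 14.00, 14.18, 14.15 and 14.06 in control hepatocytes. The hepatocyte arrays lay inside the islet range, and the difference was 0.0069 (95% interval -0.58 to 0.59), or 0.34 without the islet array numbered 2, which was not called either. Rps27a, which is made as a fusion with ubiquitin, differed by -0.75 without passing the test (95% interval -2.06 to 0.55), since the islet array numbered 2 read 9.49 for Rps27a and the other 3 read 12.51 to 12.81. Without that array it differed by 0.043. Rpsa, also known as a laminin receptor, differed by -0.45 (95% interval -1.08 to 0.18) on a dim probe that was detected on 3 of 4 arrays of each islet group.

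Of 19 called genes checked, 7 were called in the same direction under all 24 other ways of processing. Of these, 2 were higher (Rpl22 and, on a dim probe, Rpl21) and 5 lower (among them Rpl13a, Rpl7a, Rps27l and Rpl7l1). The number of ribosomal protein genes called ranged more widely. It was 35 (24 higher, 11 lower) without the arrays numbered 2 of all groups, against 75.5% of all genes in that fit. It was 13 and 12 without those numbered 1 and 4, against 58.1% and 58.2% of all genes. It was 32 (16 higher, 16 lower) with the replicate number within a tissue as a block, against 80.8% of all genes in that fit; this block takes the spread between cultures out of the error. It was 15 with the same number as a random block and 12 from the control arrays alone. Unlike the main fit, neither of these counts same-numbered arrays of a tissue as independent. The split between higher and lower moved too: it was 2 higher and 10 lower with median scaling, 3 and 16 in the deposited scores, 8 and 13 with the mean of a gene's probes, and 24 and 9 with array weights.

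Probes of one gene did not always tell the same story. Of these genes, 9 had at least 2 probes that were each detected on all 16 arrays, and in 5 of them the probes differed in sign between control islets and control hepatocytes. For Rps24 the brightest probe gave 0.42 and the dimmer one -1.01. For Rpl31 the values were 0.26 and -0.91, for Rps3 0.18 and -1.07, and for Rpl38 0.13 and -0.90. Rpl23, a large-subunit protein, had 3 such probes with 0.42, 1.13 and -0.58. Of the 10 dimmer probes, 8 gave a lower value than the brightest probe of their gene. The probes of Rpl21 (0.92 and 0.72) and of Rpl7l1 (-0.88 and -0.50) kept one sign. Rpl22, Rpl13a, Rpl7a and Rps27l each had 1 probe, and so have no further probe to check them. The part that transcript variants, pseudogenes or the limit of the scale have in these disagreements was not tested.

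**Figure D3:**
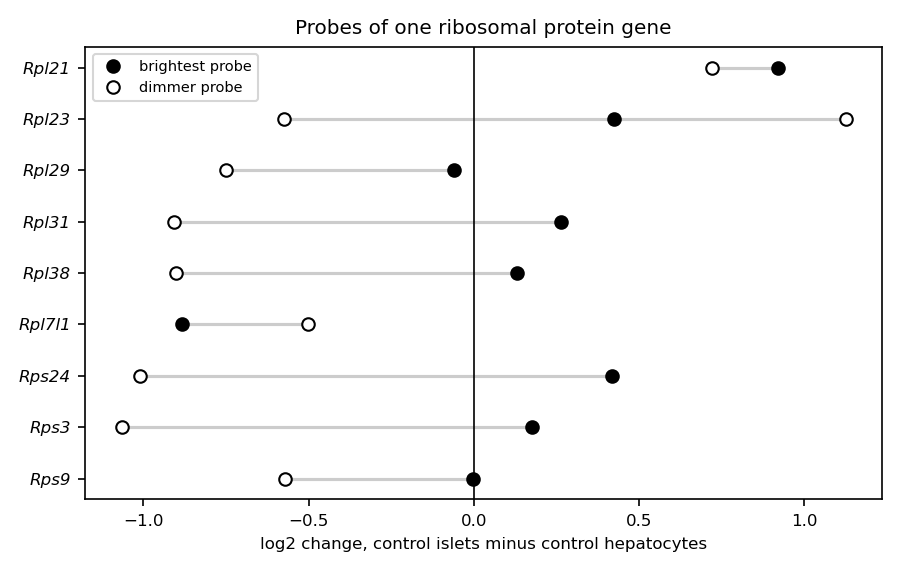
For the 9 ribosomal protein genes with at least 2 probes detected on all 16 arrays, dots give each probe's log2 difference, control islets minus control hepatocytes; filled dots are the brightest probe of the gene. The line between the dots crosses 0 for Rpl23, Rpl31, Rpl38, Rps24 and Rps3.

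In islets, FK866 was compared with DMSO to ask whether blocking NAD salvage moves ribosomal protein transcripts. No ribosomal protein gene passed the test. The count was 0 of 55, as for all 8845 genes tested (0%). No ribosomal protein gene had an unadjusted p under 0.05, against 120 of all genes (1.36%). These p-values and the intervals below come from a fit that does not pair arrays by replicate number. Same-numbered islet arrays deviated together (correlations of 0.529 to 0.926), so the error of this fit holds spread that pairing would take out. The count at unadjusted p under 0.05 is not given for a paired fit. With the replicate number as a block, no ribosomal protein gene was called either. The values leaned to one side: 47 of 55 genes were positive and the median change was 0.11, beside -0.0034 for all genes. FK866-treated and control islets did not overlap for 2 of the 55 genes, Rpl12 and Rps10, both higher with FK866, against 0.509% of all genes. None was apart and lower, against 1.15% of all genes. The median was 0.099 for the large subunit and 0.13 for the small subunit. Other genes in the brightest 1% of probes had a median of 0.086.

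The size of this lean depended on which arrays were kept. Without the control islet array numbered 2 the median change was 0.0065 and 28 of 55 genes were positive. Without both islet arrays numbered 2 it was 0.095 with 43 positive. Within the 4 replicate numbers, FK866 minus control gave medians of 0.059, 0.26, 0.18 and 0.037. The fibroblast and stellate cell markers, 6 of 12 tested, had medians of -0.013, -0.71, -0.51 and -0.027 in the same order. Their summed signal was 1954 to 2593 in FK866-treated islets and 1960 to 3787 in control islets, with 2 of 11 markers detected on no array of either group. Endothelial cell markers lay the other way, with 6 of 6 positive, a median of 0.28 and medians of 0.23, 0.26, 0.11 and 0.61 at the 4 numbers. Their summed signal was 4977 to 7428 in FK866-treated islets and 3681 to 6706 in control islets, with Cdh5, Kdr and Tie1 detected on no array of either group. Beta cell markers had 4 of 10 positive and a median of -0.11. None of 11 acinar cell markers entered the test. The summed signal of the 4 with a probe was 13.21 to 189.6 in FK866-treated islets and 17.81 to 1063 in control islets. Among them Ctrb1 read 8.86 on control islet array 3 and 6.81 on FK866 array 3, against 5.01 to 5.84 on the other islet arrays. The part of any of these cells in the lean was not tested. FK866 minus control was positive at all 4 numbers for 14 of the 55 genes, against 9.27% of all genes.

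**Figure D4:**
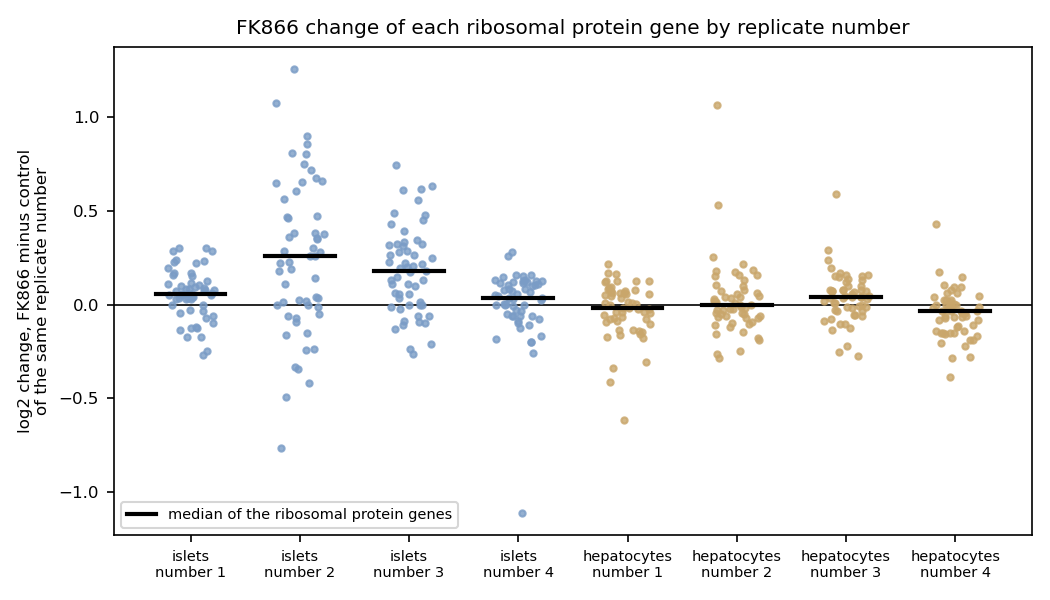
Each dot is the FK866 minus control log2 change of one ribosomal protein gene between the arrays of one replicate number (55 genes in each tissue), and black lines are medians. Islet medians lie at 0.059, 0.26, 0.18 and 0.037 and hepatocyte medians within 0.05 of 0, and the islet dots of number 2 spread the most.

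Among the ribosomal protein genes with the smallest p in islets were Rpl22l1, Rps10 and Rpl7l1, of which none passed. On the islet arrays normalized by themselves, Rpl22l1 read 7.66, 7.41, 8.25 and 7.79 with FK866, against 7.73, 6.33, 7.64 and 7.51 in controls. The groups overlapped, with the control array numbered 2 far below the rest, and the change was 0.47 (SE 0.34, adjusted p = 1.00 after rounding, from limma). Rps10, a small-subunit protein at the messenger RNA entry that is ubiquitylated on stalled ribosomes, read 13.77, 13.76, 13.78 and 13.68 with FK866, against 13.65, 13.59, 13.47 and 13.52 in controls. Its groups did not overlap, but the change was 0.19 (95% interval -0.13 to 0.52). Rpl12, at the base of the stalk, read 14.70, 14.64, 14.66 and 14.62 with FK866, against 14.53, 14.42, 14.51 and 14.59 in controls, a change of 0.14 (95% interval -0.18 to 0.47). The estimate for Rpl7l1 was 0.25 (SE 0.22), with overlapping groups.

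Rps6 read 14.47, 13.82, 14.29 and 14.42 with FK866, against 14.36, 13.01, 13.89 and 14.42 in control islets. The FK866 arrays lay within or just above the control range, with a change of 0.33 (95% interval -0.42 to 1.08). The estimate was 0.072 for Rpl22 (95% interval -0.57 to 0.71), 0.11 for Rplp0 (95% interval -0.46 to 0.69) and -0.16 for Rpsa (95% interval -0.84 to 0.52). For the stalk protein Rplp1 it was 0.011, for Rps27a 0.46, and for the paralogues and parents 0.21 (Rps27l), 0.047 (Rpl3), 0.093 (Rpl36a), 0.26 (Rpl36al), 0.11 (Rpl39) and 0.053 (Rps4x), none past the test. The intervals of 44 of the 55 genes lay within a 2-fold change in either direction. The widest was that of Rps27a, from -1.33 to 2.25.

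In hepatocytes, the effect of 200 nM FK866 on ribosomal protein transcripts was estimated within narrow limits. None of the 55 genes passed the test, as for all 8490 genes tested (0%). None had an unadjusted p under 0.05, against 1.68% of all genes. This fit too leaves the replicate number out, and with that number as a block none was called. The median change was -0.0086, beside 0.0004 for all genes, with 24 of 55 positive. The 95% intervals of all 55 lay within a 2-fold change, and the median SE was 0.089, against 0.23 in islets. The medians at the 4 replicate numbers were -0.019, 0.00, 0.042 and -0.036. FK866 and control arrays overlapped for every one of the 55 genes, where 0.624% of all genes were apart and higher and 0.448% apart and lower.

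The smallest p in hepatocytes belonged to Rpl21, with a change of 0.29 (SE 0.16, unadjusted p = 0.103 from limma). Rpl21 read 6.35, 6.81, 6.78 and 6.54 with FK866, against 6.76, 6.27, 6.19 and 6.11 in controls. The control array numbered 1 lay among the FK866 arrays. The dimmer probe of the gene gave -0.023, the other way. Rps16, a small-subunit protein near the decoding site, gave -0.14 (95% interval -0.37 to 0.098), Rps10 -0.078 and Rpl36a -0.089. Rps6 gave -0.066 (95% interval -0.30 to 0.17), Rpl22 0.073 (95% interval -0.18 to 0.33) and Rpl22l1 -0.067 (95% interval -0.56 to 0.42).

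**Figure D5:**
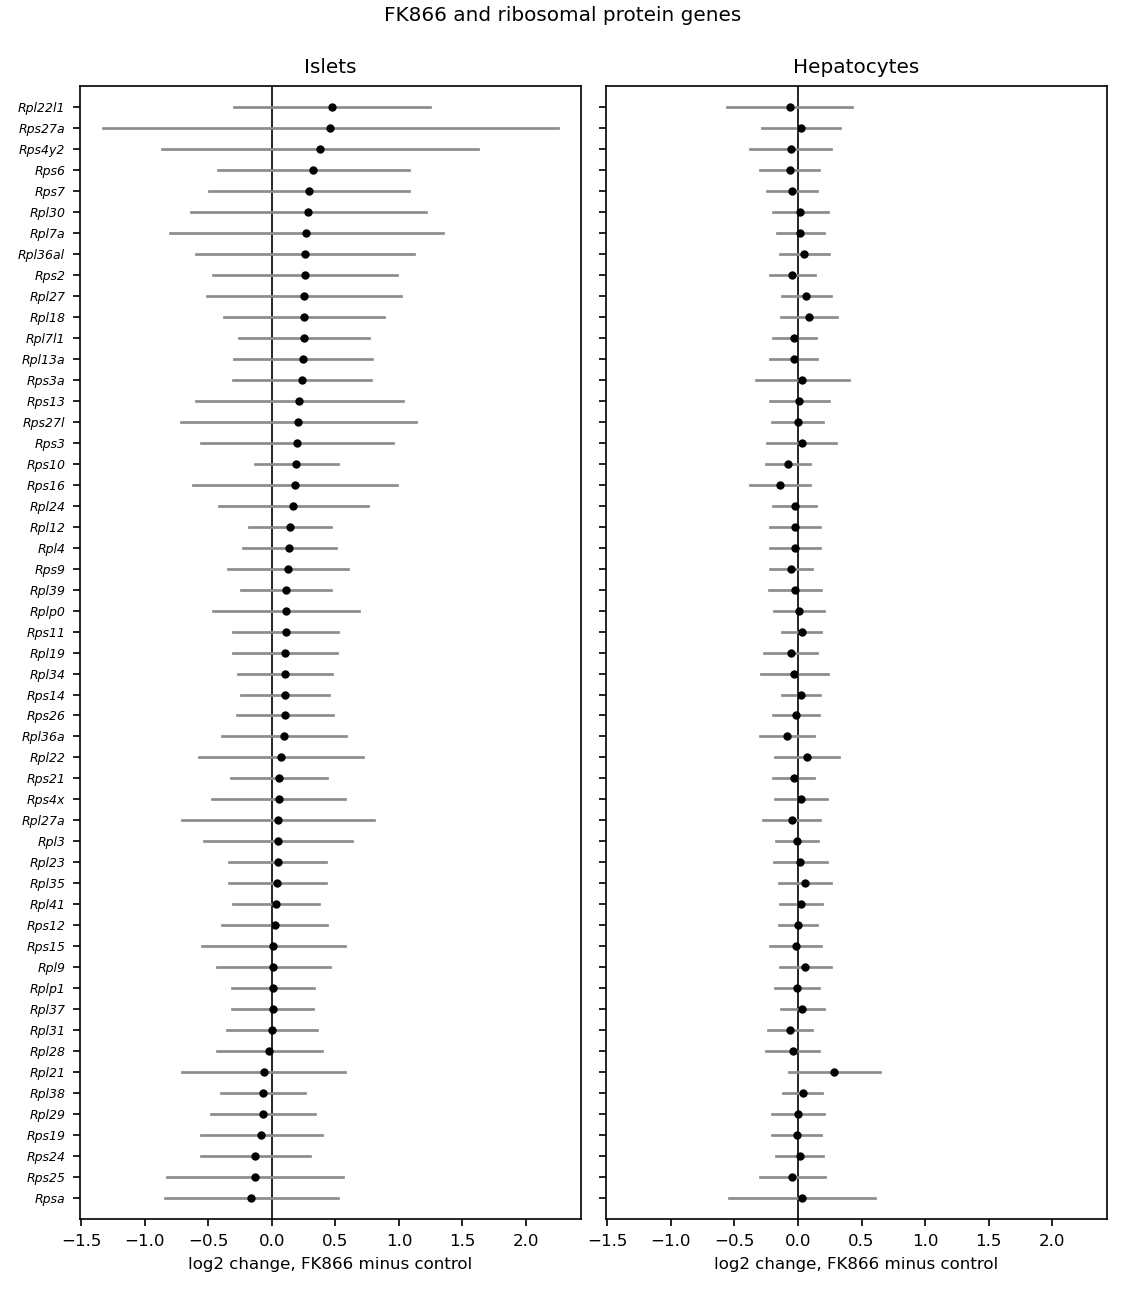
Dots give the FK866 minus control log2 change of each of 53 of the 55 ribosomal protein genes in islets (left) and hepatocytes (right), with 95% intervals from limma and the genes in the order of their islet values. Every interval includes 0, and those of hepatocytes are narrower than those of islets for all 53 genes.

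The change in islets was set against the change in hepatocytes in a single fit that did not pair arrays by replicate number. No ribosomal protein gene was called (0 of 55, and 0% of all 7455 genes), and no gene of the set had an unadjusted p under 0.05, against 1.1% of all genes. The median of the islet change minus the hepatocyte change was 0.14, beside 0.011 for all genes, with 44 of 55 positive. It was 0.014 without the control islet array numbered 2. The smallest p belonged to Rps10, Rpl12, Rpl22l1 and Rpl7l1, of which Rpl22l1 had the largest difference at 0.54.

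The ribosomal protein genes varied less between arrays than genes in general. However, 37 of the 55 tested lay among the brightest 1% of probes, where differences are compressed. The part of compression in their lower spread was not tested. The median SD of the 55 genes over the 8 arrays of a tissue was 0.30 in islets, against 0.42 for all genes tested. In hepatocytes it was 0.11, against 0.16. Without the arrays numbered 2 these medians were 0.11 against 0.19 in islets and 0.068 against 0.13 in hepatocytes. Over the 8 islet arrays Rps27a varied most (SD 1.31) and Rpl37, whose probe ranked 12 of all in signal, least (SD 0.043). Over the 6 without number 2 Rps4y2 varied most (SD 0.46) and Rpl9, whose probe ranked 9, least (SD 0.023). The median correlation between pairs of these genes was 0.19 in islets and 0.45 in hepatocytes over 8 arrays, and 0.31 and 0.14 over the 6 arrays without number 2. These arrays share their labelling and scaling, so the correlations describe the arrays and are not tested.

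Genes that build, load and regulate ribosomes were taken from lists written with earlier results known. For FK866, none of them was called in either tissue. Between control islets and control hepatocytes, 4 ribosome biogenesis genes were higher and 20 lower in islets of 54 tested (44.4% called, against 66% of all genes), with a median of -0.25. Pes1 was higher (1.61), and Taf1d (-1.73), Bop1 (-1.59) and Rcl1 (-1.5) were lower. Pes1 and Bop1 act together in a complex that matures the large subunit, and here they differed in opposite directions. Of 28 initiation factors 6 were higher and 9 lower (53.6%). Eif4a2, a helicase that unwinds messenger RNA at its cap, was higher by 3.33, while Eif4e2 (-2.15), Eif4g2 (-1.76) and Eif4b (-1.63, groups overlapping) were lower. Eif4b was detected on 3 of 4 control islet arrays and lost its call under 13 of 23 alternatives, with -0.92 without the control islet array numbered 2. Eif4g2 read 8.89, 6.42, 6.98 and 9.12 in control islets, against 9.45 to 9.69 in control hepatocytes. It lost its call under 2 of 24 alternatives.

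Of 12 genes listed, by name, as elongation and termination factors 3 were higher and 5 lower, a share called (66.7%) close to that of all genes. Eef1a2, the form of elongation factor 1A found in neurons and muscle, read 10.15, 11.40, 9.82 and 9.31 in control islets, against 5.81, 5.52, 5.27 and 5.50 in control hepatocytes. Its probe was detected on no control hepatocyte array, so its level there is only a bound, and it was at least 18.6-fold higher in islets (adjusted p = 3.37e-09), taken against the higher of its own value and the lowest detected probe on each hepatocyte array. Eif5a (-1.29), Gspt1 (-1.04) and Eef1e1 (-1.41) were lower, of which Eef1e1 gave -0.73 and lost its call without the control islet array numbered 2. Of 15 genes of TOR signalling 6 were higher and 3 lower (60%), with the stress sensors Sesn1 (2.40) and Sesn2 (1.55) and the GTPase Rragd (1.57) higher and the translation repressor Eif4ebp1 (-1.49) lower. Of 13 ribosome-associated chaperones and targeting proteins 5 were higher and 1 lower (46.2%), among them Sec61g (1.38), Srp72 (0.95) and Srp68 (0.83) higher and Metap2 (-1.49) lower. Metap2 was detected on 3 of 4 control islet arrays and gave -0.79 without the array numbered 2 (still called). Gnb2l1, the scaffold protein RACK1 on the small subunit, was lower (-1.17) with overlapping groups.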

How the data were processed

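The 16 arrays were grouped by their labels. The deposited intensity of each probe and the detection p-value beside it were used as the authors gave them, and for the steps behind them no source used here gives a tool or build. Per its values, the authors' deposited score table holds the log10 of the signal floored at 1, averaged over a gene's probes and scaled within each array. It gave gene names: 14757 of 18111 symbols were tied to probes by matching scores over the 16 arrays (tolerance 1e-07). Islet scores of 5015 rows stood 1 row off and were read from the row above, and no ribosomal protein gene lies there.

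Deposited intensities were corrected with neqc (limma 3.58.1, R 4.3.3; background from detection p, offset 16, quantile normalization) to log2 values, within a tissue for FK866 and over all 16 arrays otherwise. The brightest probe stood for a gene. limma's lmFit and eBayes gave p-values with Benjamini-Hochberg adjustment. The comparison of tissues used all 4 groups for its error and took the 16 arrays as independent, which the correlations given next go against. Same-numbered arrays of a tissue deviated together, with correlations of 0.529 to 0.926 in islets and 0.386 to 0.615 in hepatocytes. Unlike numbers gave -0.849 to 0.669 in islets and -0.369 to 0.078 in hepatocytes. The numbers thus pair the samples in hepatocytes and less clearly in islets. There the FK866 array numbered 3 was closer to control 4 (0.669) than to control 3 (0.529). The main fits do not use this pairing. Islet and hepatocyte controls of one number did not deviate together (-0.118 to 0.095). No 2 arrays held identical values.

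Named genes were the called genes with the largest changes and groups apart, otherwise those with the smallest p, plus paralogues, stalk proteins, Rpsa, Rps6 and Rps27a, and for each list up to 4 called genes. Members and lists were chosen with earlier results of these data known. In simulated data for the hepatocyte comparison (8490 genes), 89 of 100 changes of 1 log2 unit were recovered. In islets (8845 genes) it was 26 of 100, and between tissues (9988 genes) 67 of 100. The runs gave 15, 6 and 9 false calls. Simulated scatter was independent between arrays, without the deviations that the real arrays share, so these rates may not hold for them. The number of arrays limits the precision. Some genes are counted in totals but not reported here by name. Figures were drawn with matplotlib.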

Additional observations from a re-analysis of the deposited data

Results flagged for a closer look

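The highest or lowest of 4 arrays was checked for a gap to the others in 128 groups of values of the genes named, and 18 stood apart. Chance flags about 1 in 20 groups. In 13 of the 18 the array was an islet array numbered 2.

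In FK866-treated islets, array 2 read 11.74 for Rpl22, 13.52 for Rpl24, 14.11 for Rpl36al, 10.71 for Rps27a and 13.36 for Rps27l, each below the other 3 arrays. The same array read 15.25 for Rps21 and 15.72 for Rps24, each above the others. Array 1 read 15.68 for Rpl37, just above 3 arrays that all read 15.66. In control islets, array 2 read 6.33 for Rpl22l1, 13.36 for Rpl36al, 12.98 for Rps16, 9.45 for Rps27a, 12.64 for Rps27l and 14.54 for Rps4x, all below the other 3 arrays.

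In FK866-treated hepatocytes, array 2 read 14.95 for Rpl36al, above the others, and array 1 read 15.17 for Rps27l, below them. In control hepatocytes, array 2 read 14.98 for Rps16, and the median of 55 ribosomal protein genes was 14.82 there against 14.68 to 14.70 on the other 3 arrays.

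No gene moved one way at all 4 replicate numbers in islets and the other way at all 4 in hepatocytes, among 31 checked.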

How the results depend on the processing

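With FK866, no ribosomal protein gene was called in islets, in hepatocytes or in the difference between them under any alternative, replicate block included. Leaving out arrays gave median changes of 0.0065 to 0.15 in islets, -0.044 to 0.023 in hepatocytes and 0.0144 to 0.192 for the difference, the lowest without control islet array 2. Array weights gave 0.0602 in islets (41 of 55 positive) and 0.0753 for the difference. The FK866 calls over all genes in islets were 0, 1 with the replicate block and 13 with array weights.

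Between control islets and control hepatocytes 20 genes were called. The count was 32 with the replicate block, 33 with array weights, 12 with median scaling, 12 from the control arrays alone and 12 to 35 when arrays were left out. It was 19 in the deposited scores (3 higher, 16 lower), 21 with the mean of probes (8 higher, 13 lower) and, chosen after seeing the data, 24 with the dimmest probe detected on all 16 arrays (8 higher, 16 lower) and 15 with the culture number as a random block. The median was -0.194 with median scaling, -0.0673 with the mean of probes and with the dimmest probe, and -0.0331 to 0.177 when arrays were left out. Called genes changed sign for Rps14 (-0.00747), Rps26 (-0.0200) and Rpl31 (-0.157) with median scaling, for Rps24 (-0.0704), Rpl31 (-0.108) and Rpl4 (0.0779) in score units, for Rps24 (-0.296) and Rpl31 (-0.321) with the mean of probes, and for Rpl23 (-0.576), Rps24 (-1.01) and Rpl31 (-0.907) with the dimmest probe. The cause was not tested. A further 49 of 131 results for named genes changed sign only while not called. Bright probes near the top of the scale, 4 arrays a group and the spread of the islet arrays numbered 2 limit what could be found.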
